A study of Mus musculus with 11 samples.

Results

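The 10 genes described here, Myrf, Olig1, Olig2, Sox10, Tcf7l2, Nkx2-2, Nkx6-2, Enpp6, Bcas1 and St18, encode regulators and stage-restricted proteins of the oligodendrocyte lineage. They were taken by name from the 25827 genes counted in single-nucleus RNA sequencing of mouse CNS tissue, and all 10 were found. Each of the 11 libraries held Hoechst-sorted nuclei of cerebellum, brainstem and upper cervical spinal cord of adult males aged 8 to 12 weeks. Every mouse carried the floxed Il12rb2 alleles (Il12rb2fl/fl), which encode a subunit of the IL-12 receptor, and the NestinCre/+Il12rb2fl/fl mice also carried a Cre recombinase under Nestin control, which is active in precursors of neurons, astrocytes and oligodendrocytes. EAE (experimental autoimmune encephalomyelitis) had been induced with a myelin oligodendrocyte glycoprotein peptide in complete Freund's adjuvant plus pertussis toxin, and tissue was taken on day 10. There were 4 Il12rb2fl/fl EAE libraries (fl EAE), 4 NestinCre/+Il12rb2fl/fl EAE libraries (NestinCre EAE), 2 non-immunized Il12rb2fl/fl libraries (fl naive 2 and 3) and 1 non-immunized NestinCre/+Il12rb2fl/fl library (NestinCre naive 2). Sequencing run 1 held the EAE libraries numbered 1 to 3 of each genotype. Run 2 held 1 further EAE library of each genotype, which carried no number and is called replicate 4 here, together with fl naive 2. Run 3 held fl naive 3 and NestinCre naive 2. No library carried NestinCre without floxed alleles, so effects of Cre and of the deletion cannot be told apart. In addition, 1 library stood for NestinCre naive mice.

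Oligodendrocytes arise from progenitors that divide, commit, pass through a short premyelinating state and then myelinate. Olig1, Olig2, Sox10, Nkx2-2 and Nkx6-2 encode DNA-binding factors that specify the lineage or drive it onwards, and Myrf encodes a membrane-tethered factor that switches on myelin genes in postmitotic cells and keeps them on. Tcf7l2 encodes a Wnt pathway effector that is transiently high while progenitors commit, Enpp6 a choline phosphodiesterase used as a marker of newly formed oligodendrocytes, Bcas1 a protein of early myelinating cells and St18 a zinc finger factor of the Myt1 family.

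Stages were assigned to clusters of nuclei from markers that did not include the 10 genes, and the 10 genes were also left out of clustering. Among 160409 nuclei kept, 21551 belonged to the lineage: 895 in 4 progenitor clusters, 81 in 1 cluster between progenitors and newly formed cells, 71 in 1 newly formed or committed cluster and 20504 in 26 mature clusters. The median nucleus held 3438, 3776, 5094 and 2171 UMIs (unique molecular identifiers, which count RNA molecules) in these stages. Levels are given in CPM: a gene's UMIs are summed over the nuclei of a stage in 1 library, divided by all UMIs of that stage and library, and scaled so that all genes together make 1000000. They are compared between stages or libraries, not between genes, since UMIs were not scaled by transcript length. Pooled over libraries, the progenitor marker list summed to 21355 CPM in progenitors, 12045 in newly formed cells and 238 in mature cells, and the mature list to 534, 5777 and 12786. Newly formed cells were highest for their own list, at 9203 against 1576 in progenitors and 407 in mature cells, but their Tnr, a progenitor marker, alone reached 10398 while Pdgfra, the defining progenitor receptor, had 0 UMIs. The cluster in between held both lists, at 17491 and 7104, and was therefore kept apart, but here too Tnr made up 11712 of the progenitor list, and Pdgfra stood at 71.2 against 868 in progenitors. Its 10 leading genes were Sox6, Ppfibp1, Vcan, Tnr, Itga9, Itpr2, Tns3, Csgalnact1, Nrg1 and Neu4. Library totals ran from 40761007 to 86063464 UMIs with 11700 to 18650 kept nuclei, and any pair of the 11 libraries shared 0.359 to 0.685% of cell barcodes. Il12rb2 itself had 8.84 to 18.3 CPM in neurons and 1.58 to 4.16 in mature oligodendrocytes over the 11 libraries, and the genotypes overlapped, with 12.1 to 18.3 in neurons of fl EAE and 8.84 to 17.8 in those of NestinCre EAE libraries. Reads from the 3′ end count transcripts whether or not an upstream exon is missing, and the deleted part is not given in the sources used here, so this does not check the genotype labels.

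RefSeq promoter sequences (the 250 bases before a transcript start, GRCm38.p6) were available for 5 of the 10 genes. They are shown for genes with large stage differences (Enpp6, Tcf7l2), for a gene that was high in progenitors (Olig2) and for one highest in mature cells (Nkx6-2), because SOX, NKX2 and basic helix-loop-helix factors are themselves among the 10 genes. Capitals mark ACAATG or its reverse complement CATTGT, a core that SOX proteins bind.
Enpp6, chr8:46986637-46986886, plus strand: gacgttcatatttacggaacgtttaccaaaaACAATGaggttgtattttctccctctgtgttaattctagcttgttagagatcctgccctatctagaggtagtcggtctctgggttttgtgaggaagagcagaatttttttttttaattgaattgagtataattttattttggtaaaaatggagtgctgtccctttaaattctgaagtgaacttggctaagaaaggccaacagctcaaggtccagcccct
Tcf7l2, chr19:55741560-55741809, plus strand: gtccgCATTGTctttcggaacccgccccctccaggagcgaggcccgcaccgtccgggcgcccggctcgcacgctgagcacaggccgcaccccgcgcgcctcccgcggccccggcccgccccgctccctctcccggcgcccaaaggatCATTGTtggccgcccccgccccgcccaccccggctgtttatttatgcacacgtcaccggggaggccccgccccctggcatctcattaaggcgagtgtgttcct
Olig2, chr16:91225300-91225549, plus strand: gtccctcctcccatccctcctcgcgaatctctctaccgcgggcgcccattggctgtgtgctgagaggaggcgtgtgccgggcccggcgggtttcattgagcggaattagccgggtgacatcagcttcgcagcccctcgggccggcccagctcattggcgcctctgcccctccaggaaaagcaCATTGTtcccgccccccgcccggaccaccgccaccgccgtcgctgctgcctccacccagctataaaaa
Nkx6-2, chr7:139582798-139583047, minus strand: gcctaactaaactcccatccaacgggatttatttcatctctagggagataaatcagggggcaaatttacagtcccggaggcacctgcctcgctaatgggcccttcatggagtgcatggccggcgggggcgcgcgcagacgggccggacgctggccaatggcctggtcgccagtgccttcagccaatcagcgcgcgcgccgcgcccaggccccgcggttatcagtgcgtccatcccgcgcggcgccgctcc
With the base just before the transcript start counted as -1, the first base of the match lay at -219 in Enpp6, at -245 and -103 in Tcf7l2 and at -68 in Olig2. No ACAATG was present in the windows of Nkx6-2 and Nkx2-2 or in a second Tcf7l2 window further downstream, so 3 of the 6 windows of these 5 genes carried the motif, against 10.7% of the 32851 windows in the table. CANNTG, the E-box read by basic helix-loop-helix factors, was present 3 times in Nkx2-2 and 1 time in Nkx6-2 and is found in 66.2% of all windows. AAGTG, an NKX2 core, occurred 1 time each in Enpp6, Nkx2-2 and the second Tcf7l2 window, and in 40.7% of all windows. CANNTG and AAGTG can overlap, both strands were searched, and these matches describe letters, not bound sites. GC content was 38.4% in the Enpp6 window, 72.8% in the first Tcf7l2 window, 66.8% in Olig2 and 65.2% in Nkx6-2.

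The 10 genes fell into different orders across the stages. Among progenitors, newly formed and mature cells, 6 genes had their highest pooled level in newly formed cells (Tcf7l2, Enpp6, Bcas1, St18, Sox10 and Nkx2-2), Olig1 and Olig2 were highest in progenitors, and Myrf and Nkx6-2 were highest in mature cells. For St18 the pooled levels of newly formed and mature cells were nearly equal, and within most libraries mature cells were higher. For Nkx2-2 the level in newly formed cells rested on 31 UMIs, and its range over libraries enclosed that of progenitors. These are descriptions without a test, since the stages are clusters of the same nuclei. Ratios between stages were computed within each library on the log2 scale after adding 10 to each level, which understates differences of low genes. NestinCre EAE 1 held no newly formed nucleus, so comparisons with that stage rest on 10 libraries, several of them with fewer than 10 such nuclei.

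**Figure D1:**
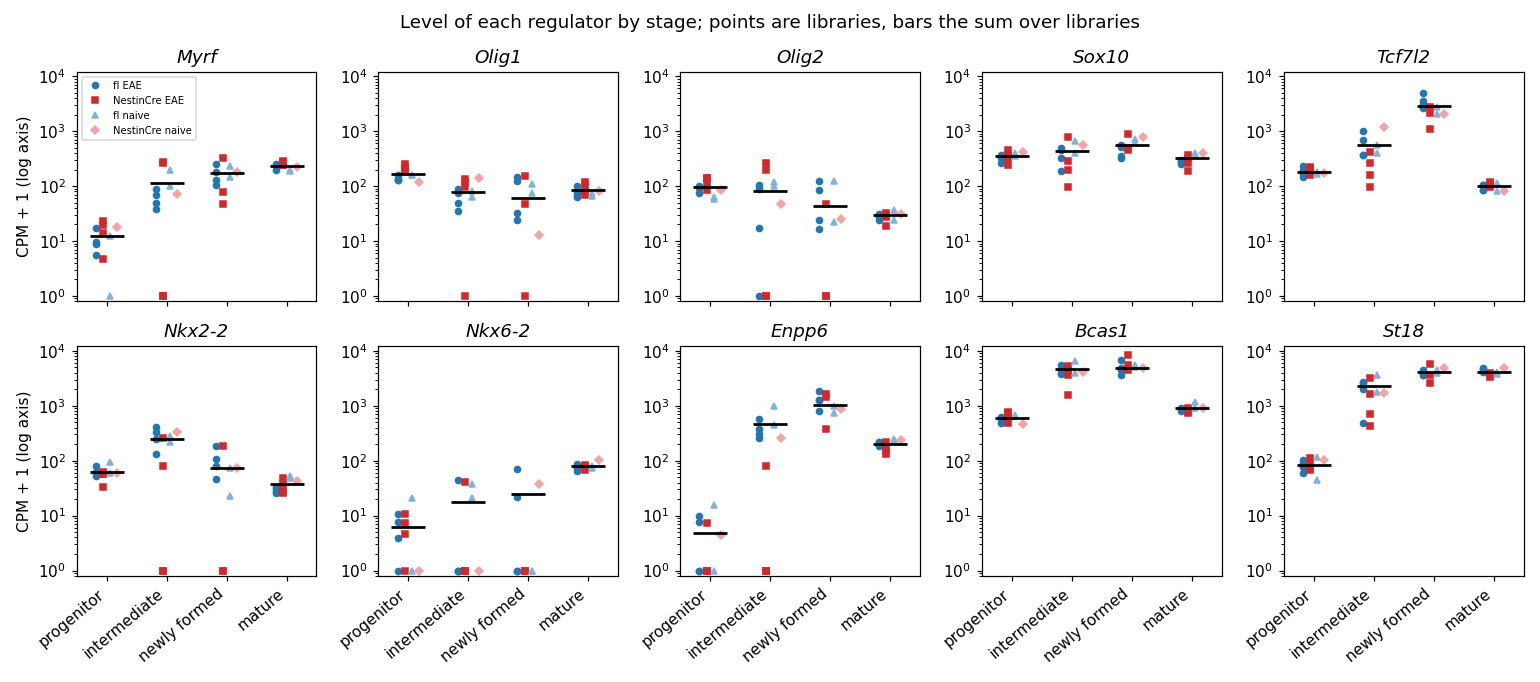
CPM (plus 1, log axis) of each of the 10 genes in progenitors, the cluster in between, newly formed and mature oligodendrocytes, with 1 point per library and a bar for the level over all libraries together. Tcf7l2 peaked in newly formed cells at 2882 CPM against 181 in progenitors and 98.7 in mature cells, whereas St18 was at 4144.5 in newly formed and 4106 in mature cells.

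Olig1 and Olig2, neighbouring genes for basic helix-loop-helix factors (GRCm39 chr16:91066660-91068821 and chr16:91019435-91025567, plus strand), were highest in progenitors. Olig1 (ENSMUSG00000046160) ranged over libraries from 116 to 249.7 CPM in progenitors, with a median of 157, and from 62.0 to 118 with a median of 78.2 in mature cells. Olig2 (ENSMUSG00000039830) ranged from 57.1 to 140.3 with a median of 91.0 in progenitors and from 17.9 to 35.3 with a median of 27.7 in mature cells. Both were lower in mature cells than in progenitors in 11 of 11 libraries, by a log2 ratio of -0.93 ± 0.28 for Olig1 and -1.46 ± 0.39 for Olig2 (mean ± SD, n = 11). For Olig2 the ranges of the stages did not touch, while those of Olig1 overlapped at their edges. In newly formed cells the counts were small, 25 UMIs of Olig1 and 18 of Olig2 in all, and the pooled levels of 58.6 and 42.2 lay below those of progenitors. Olig1 was lower than in progenitors in 10 of 10 libraries and Olig2 in 8 of 10. When stages were instead assigned nucleus by nucleus from marker UMIs, the ratio of Olig1 in mature cells over progenitors turned, to a mean of 0.45 ± 0.44 with mature cells higher in 9 of 11 libraries. In newly formed cells, 34 nuclei by that definition, the mean was -1.48 ± 2.17 while the pooled ratio was 0.48, so the direction for Olig1 depended on how the stages were defined.

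Nkx2-2 (ENSMUSG00000027434, GRCm39 chr2:147019466-147036163, minus strand), a homeodomain factor of the progenitor-to-oligodendrocyte transition, was highest in the cluster between progenitors and newly formed cells. Its pooled level there was 244 CPM, against 61.2 in progenitors, 72.6 in newly formed and 36.6 in mature cells. Newly formed cells held 31 UMIs of it and ranged from 0 to 183.5 CPM, with none in 2 of 10 libraries, so their order against progenitors is not settled. Within libraries, the cluster in between exceeded progenitors in 9 of 11, with a log2 ratio of 0.97 ± 1.82, and 2 NestinCre EAE libraries with 2 nuclei each had no Nkx2-2 UMI there. Newly formed cells were below that cluster in 9 of 10 libraries (-1.59 ± 1.16, n = 10), and in the other neither had a UMI. In progenitors Nkx2-2 ranged from 32.0 to 95.1 with a median of 58.5, and in mature cells from 24.7 to 52.1 with a median of 31.7, lower in 11 of 11 libraries (-0.65 ± 0.35). The marker-UMI definition turned this last mean to 0.26.

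Sox10 (ENSMUSG00000033006, GRCm39 chr15:79039108-79049469, minus strand), the SOX factor needed throughout the lineage, was the member whose pooled level moved least between the stages as clustered. It ranged from 237 to 455 CPM in progenitors (median 357), from 324 to 872 in newly formed cells (median 526) and from 186 to 407 in mature cells (median 298). Newly formed cells exceeded progenitors in 9 of 10 libraries (log2 ratio 0.58 ± 0.30) and mature cells were lower than newly formed cells in 10 of 10 (-0.75 ± 0.27). Mature cells and progenitors differed by -0.18 ± 0.17, with mature cells lower in 10 of 11 libraries, and their ranges overlapped over most of their length. With marker UMIs this ratio became 1.18, with mature cells higher in 11 of 11 libraries.

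Tcf7l2, Enpp6 and Bcas1 peaked at the newly formed stage. Tcf7l2 (ENSMUSG00000024985, GRCm39 chr19:55730188-55922091, plus strand) rested on 1230 UMIs there and ranged from 1074 to 4902 CPM with a median of 2713, whereas progenitors ranged from 146 to 234 (median 183) and mature cells from 80.3 to 117 (median 104). The 3 ranges did not overlap. The log2 ratio of newly formed cells over progenitors was 3.73 ± 0.59 and that of mature over newly formed cells -4.57 ± 0.66, with 10 of 10 libraries showing each direction. The cluster in between stood at 548, so Tcf7l2 was closer there to progenitors than to newly formed cells, which exceeded it in 10 of 10 libraries (2.63 ± 0.91). Enpp6 (ENSMUSG00000038173, GRCm39 chr8:47439919-47549797, plus strand) was nearly absent from progenitors, with 13 UMIs in all and none in 6 of 11 libraries, where 3 UMIs would have been 8.78 to 11.5 CPM. It reached 384 to 1891 CPM (median 1114) in newly formed cells and remained detectable at 132 to 247 (median 215) in mature cells. Its log2 ratio was 6.30 ± 0.87 from progenitors to newly formed cells and -2.29 ± 0.77 from newly formed to mature cells, again in 10 of 10 libraries each. Bcas1 (ENSMUSG00000013523, GRCm39 chr2:170188911-170269765, minus strand) ranged from 462 to 775 in progenitors (median 594), from 3562 to 8442 in newly formed cells (median 4936) and from 738 to 1148 in mature cells (median 865). Unlike Tcf7l2, Bcas1 was already at 4610.2 CPM in the cluster in between, against 4892 in newly formed cells. Mature cells were above progenitors for Bcas1 in 11 of 11 libraries (0.55 ± 0.30), a mean that became -0.10 when the cluster in between was added to the progenitors, an alternative chosen after the data were seen. With marker UMIs, where 34 nuclei in 9 libraries were newly formed, the pooled ratios over progenitors remained above 0 for Tcf7l2 (3.91), Enpp6 (3.66) and Bcas1 (2.24), but the mean over libraries was 0.53 ± 4.01, 0.94 ± 2.75 and -1.25 ± 3.88.

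St18 (ENSMUSG00000033740, GRCm39 chr1:6557455-6931164, plus strand), Myrf and Nkx6-2 were high at the end of the lineage. St18 ranged from 43.9 to 114 CPM in progenitors (median 88.2), from 2615 to 5739 in newly formed cells (median 4005) and from 3366 to 4838 in mature cells (median 4088). The log2 ratio over progenitors was 5.45 ± 0.37 in newly formed and 5.49 ± 0.41 in mature cells, and mature and newly formed cells differed by 0.03 ± 0.36, with mature cells higher in 7 of 10 libraries. In the cluster in between, St18 stood at 2250.3. Myrf (ENSMUSG00000036098, GRCm39 chr19:10185634-10218161, minus strand) ranged from 0 to 22.4 in progenitors (median 11.4; 39 UMIs in all), from 45.9 to 328 in newly formed cells (median 162) and from 189.5 to 284 in mature cells (median 240.3). It exceeded progenitors by 3.04 ± 0.85 in newly formed cells (10 of 10 libraries) and by 3.59 ± 0.42 in mature cells (11 of 11), and mature cells were above newly formed cells in 7 of 10 libraries. Nkx6-2 (ENSMUSG00000041309, GRCm39 chr7:139159292-139162718, minus strand) ranged from 0 to 19.5 in progenitors, with 18 UMIs in all and none in 4 of 11 libraries, and from 64.0 to 101 in mature cells (median 76.2), a log2 ratio of 2.59 ± 0.62 with 11 of 11 libraries higher. In newly formed cells it had 10 UMIs, from 3 of 10 libraries, and in the 7 libraries at 0 an amount of 3 UMIs would have been 47.2 to 492 CPM, a range that covers the level of mature cells, so no ratio of these stages within libraries is given. The pooled log2 ratio of mature over newly formed cells was 1.39.

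The share of nuclei with at least 1 UMI was also taken, once every nucleus was thinned to 1000 UMIs. Over progenitors, newly formed and mature cells its order was that of the pooled levels for 9 genes but not for Myrf, which was found in 1.13% of progenitors, 23.9% of newly formed and 20.8% of mature nuclei. Free RNA gives UMIs in nuclei that do not express a gene, and granule cells (median 2137 UMIs) served as background. Enpp6 was detected in 0.562% of progenitors (exact 95% binomial interval 0.183 to 1.31%), against 0.508% of granule cells, so the progenitor share lay at background, and in 66.2% of newly formed and 13.1% of mature nuclei. Nkx6-2 in progenitors, at 0.787%, likewise did not stand apart from 0.705% in granule cells, whereas 5.63% of newly formed nuclei (exact 95% binomial interval 1.56 to 13.8%) and 7.23% of mature nuclei were positive. Tcf7l2 was found in 87.3% of newly formed nuclei but in 14.8% of progenitors and 9.002% of mature nuclei. Bcas1 was found in 38.8% of progenitors, 96.3% of the cluster in between, 91.5% of newly formed and 56.8% of mature nuclei. Olig1 went from 18.7% of progenitors to 8.55% of mature nuclei, and Olig2 from 9.67% to 2.87%. Sox10 was seen in 30.8, 42.3 and 27.8% of progenitor, newly formed and mature nuclei. St18 was seen in 5.51, 95.8 and 94.4%, but here granule cells are no background. St18 was found in 37.2% of them, at 507 CPM, against 4.19% of molecular layer interneurons (median 4032 UMIs).

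**Figure D2:**
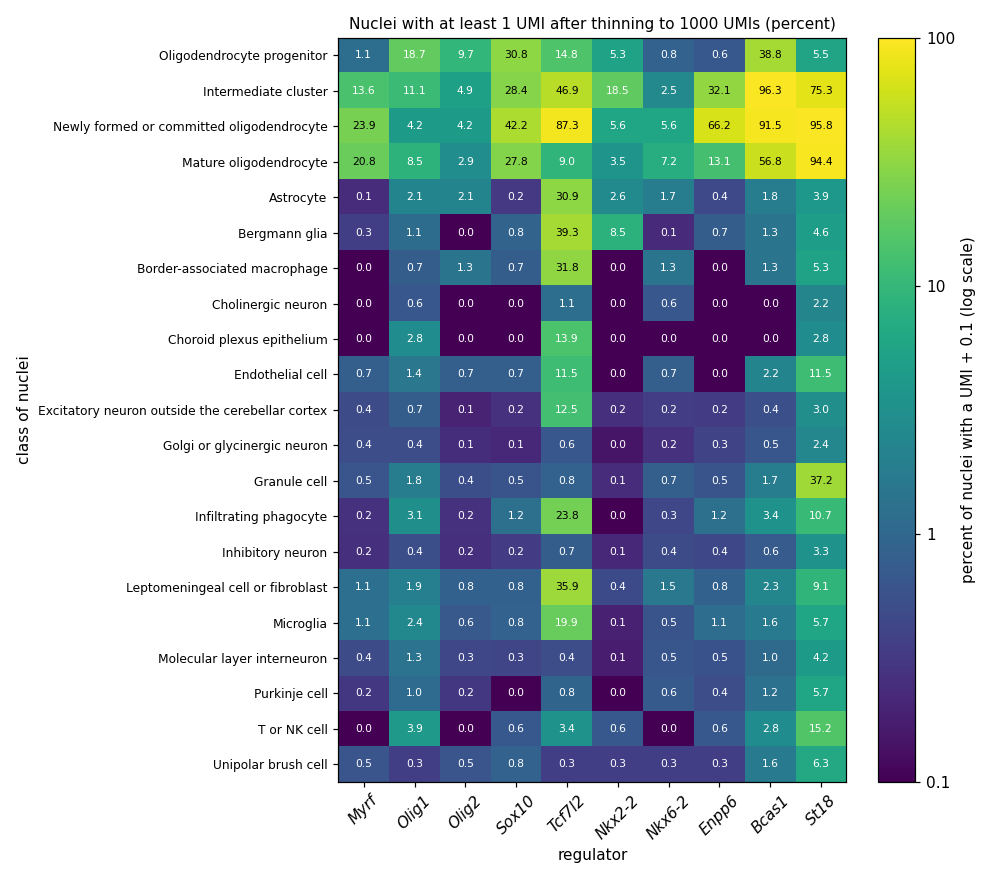
Percent of nuclei with at least 1 UMI after thinning to 1000 UMIs, for the 10 genes (columns) in 20 named cell classes and the cluster between progenitors and newly formed cells (rows). Sox10, Olig1, Olig2, Myrf, Enpp6 and Bcas1 were highest in the oligodendrocyte lineage, while Tcf7l2 also reached 39.3% of Bergmann glia, 35.9% of leptomeningeal cells and 30.9% of astrocytes.

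Across the 20 named classes, the genes whose log2 levels ran most like Sox10 were Erbb3 (Pearson r = 0.947), Fa2h (0.938), Pllp (0.930), Bcas1 (0.927) and Fbxo7 (0.921), out of 13241 genes compared. For Myrf they were Cdc37l1 (0.914), Map4k5 (0.913), Fa2h (0.906), Sgk2 (0.900) and Mag (0.896), and for Enpp6 Cldn14 (0.868), Mbp (0.865), Zfp276 (0.864), Map4k5 (0.862) and Tnni1 (0.859). These correlations describe class averages that come from the same libraries, with 3 of the 20 classes belonging to the lineage.

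Within mature oligodendrocytes the members were uneven. A split chosen after the values were seen, between 9 clusters with Anln among their 10 leading genes (7160 nuclei) and the other 17 (13344 nuclei), separated Enpp6. Over the 11 libraries Enpp6 ranged from 276 to 469 CPM (median 409) in the Anln clusters and from 24.9 to 49.9 (median 40.3) in the others, a log2 ratio of 3.06 ± 0.21. The ranges were far apart, and every library showed the split. Olig1 was lower there, at 42.1 to 79.5 against 77.6 to 147 (log2 ratio -0.80 ± 0.11), as were Olig2 (-0.70 ± 0.26), Tcf7l2 (-0.64 ± 0.19), Bcas1 (-0.47 ± 0.11), Myrf (-0.34 ± 0.11) and Sox10 (-0.17 ± 0.11), each lower in 11 of 11 libraries. Nkx6-2 was lower in 10 of 11 libraries (-0.29 ± 0.18), whereas Nkx2-2 (0.27 ± 0.17) and St18 (0.10 ± 0.07) were higher in 11 of 11. Across the 26 single clusters Enpp6 ran from 5.30 to 557, Olig1 from 27.5 to 161, Tcf7l2 from 51.9 to 195, Bcas1 from 588 to 1162 and St18 from 2869.9 to 5967. Depth differed too. The typical nucleus held 1.83 times its library's median UMIs in the cluster lowest for Olig1 and Tcf7l2. In the cluster highest for Olig1 and lowest for St18 it held 0.444 times, and over the Anln clusters 0.678 to 1.83 times. The part of depth in these values was not tested. No test was made, because genes define the clusters. The newly formed share of the Enpp6 signal was small: newly formed nuclei held 435 Enpp6 UMIs and mature nuclei 9859.

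**Figure D3:**
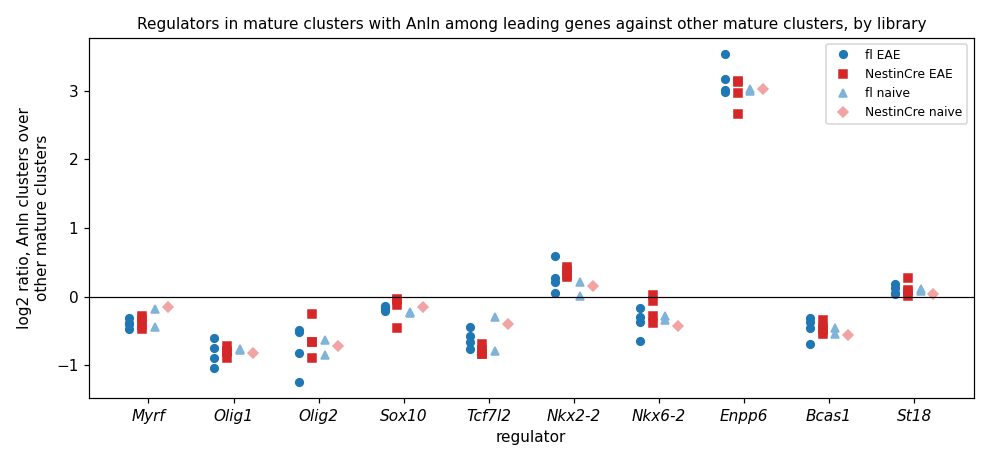
Log2 ratio (10 CPM added) of each of the 10 genes in the 9 mature clusters with Anln among their 10 leading genes over the other 17 mature clusters, with 1 point per library. Enpp6 stood at 3.06 ± 0.21 (SD, n = 11), and the other 9 genes lay between -0.80 and 0.27 on average.

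Newly formed cells were on average a smaller share of the lineage in NestinCre EAE than in fl EAE libraries, a difference that did not pass the test. They made up 0.642, 0.787, 0.400 and 0.178% of lineage nuclei in fl EAE replicates 1 to 4, a mean of 0.502 ± 0.268% (SD, n = 4; 34 nuclei). In NestinCre EAE replicates 1 to 4 they made up 0, 0.0573, 0.194 and 0.114%, a mean of 0.0914 ± 0.0829% (n = 4; 8 nuclei), and 0 of 1310 nuclei allows a share of up to 0.229%. The groups overlapped at their edges, through fl EAE 4 and NestinCre EAE 3, and the two-sided exact permutation test gave p = 0.05714, or 0.07619 after Benjamini-Hochberg adjustment over 4 stages (70 assignments of 4 against 4 libraries). Within run 1 every fl EAE library lay above every NestinCre EAE library, and run 2 gave 0.178 against 0.114%. The cluster in between averaged 0.388 ± 0.0867% in fl EAE and 0.162 ± 0.115% in NestinCre EAE, mature cells 93.93 ± 0.553% and 95.1 ± 0.795%, with the same p, and progenitors 5.184 ± 0.440% and 4.645 ± 0.837% (exact permutation p = 0.3143, adjusted 0.3143). None passed the adjusted threshold. Full separation of 4 against 4 libraries gives p = 0.02857 in this exact permutation test, its smallest value. After adjustment over 4 stages, 1 separated stage alone could not pass, so failing it says little. The newly formed share depended on how the stage was defined: with marker UMIs there were 8 such nuclei in each genotype, a mean of 0.102 ± 0.0766% in fl EAE and 0.103 ± 0.107% in NestinCre EAE. Without doublet removal the groups did not overlap, at 0.316 to 0.634% (37 nuclei) and 0.0635 to 0.216% (16 nuclei), with an adjusted exact permutation p of 0.05714. Among nuclei under 6000 UMIs the means were 0.320 ± 0.235% in fl EAE and 0.0639 ± 0.0933% in NestinCre EAE (adjusted exact permutation p = 0.2857). These recalculations of the share were chosen after the data were seen. Naive libraries held 0.312 and 0.394% newly formed cells in fl mice and 0.766% in the NestinCre mouse.

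Between genotypes in EAE, 1 of the members was called (adjusted p under 0.05) in progenitors, Olig1, which was higher in NestinCre EAE. Olig1 stood at 157, 127, 132 and 129 CPM in fl EAE replicates 1 to 4 and at 192, 197, 249.7 and 211 in NestinCre EAE replicates 1 to 4. All 4 NestinCre EAE libraries lay above all 4 fl EAE libraries, in run 1 (157, 127 and 132 against 192, 197 and 249.7) as in run 2 (129 against 211). The difference was 0.68 on the log2 scale (SE 0.16, adjusted p = 0.0397 in edgeR's quasi-likelihood test with Benjamini-Hochberg adjustment over 5651 genes). Of the 5651 genes 40, or 0.708%, were called, 38 of them (0.672%) higher in NestinCre EAE, and 4.32% had groups that did not overlap. The fl naive libraries stood at 156 and 159.8 and the NestinCre naive library at 116. The call was close to the threshold: DESeq2 gave an adjusted p of 0.221, a model with replicate number as a block 0.0753 and run 1 alone 0.106 (log2 difference 0.67). Leaving out a library kept the log2 difference between 0.60 and 0.74, and it ended the call for any EAE library except fl EAE 1, with adjusted p of 0.0504 to 0.156 against 0.0497. Olig1 remained called when the stage was taken nucleus by nucleus from markers (0.80, adjusted p = 0.0305 in edgeR). That definition took 2054 nuclei over all libraries as progenitors, of which 43.1% lay in the progenitor clusters, so it largely describes other nuclei. Within the progenitor sums Syt1, a synaptic gene of neurons, fell by 0.62 (SE 0.15, adjusted p = 0.0357), the summed levels of the 5 neuronal markers were 1258 to 1437 CPM in fl EAE and 837 to 1294 in NestinCre EAE, and astrocyte and microglial markers overlapped (159 to 231 against 155 to 246 and 73.7 to 163 against 86.3 to 159). None of the neuronal markers was at 0 in any of these libraries, and 1 to 4 of the 6 microglial markers were. The part of neuronal RNA in the Olig1 difference was not tested. A progenitor cluster of 62 nuclei, looked up after the values were seen, held 52 NestinCre EAE and 7 fl EAE nuclei. Its Olig1 stood at 192 CPM, against 142 to 176 in the other progenitor clusters. The part of this cluster in the Olig1 difference was not tested either. In progenitors thinned to 1000 UMIs, 23.4, 11.8, 12.1 and 11.5% of nuclei had an Olig1 UMI in fl EAE replicates 1 to 4 and 24.0, 24.4, 29.2 and 25.2% in NestinCre EAE replicates 1 to 4. By this share fl EAE 1 lay close to the NestinCre EAE libraries, at 23.4% against their lowest of 24.0%.

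**Figure D4:**
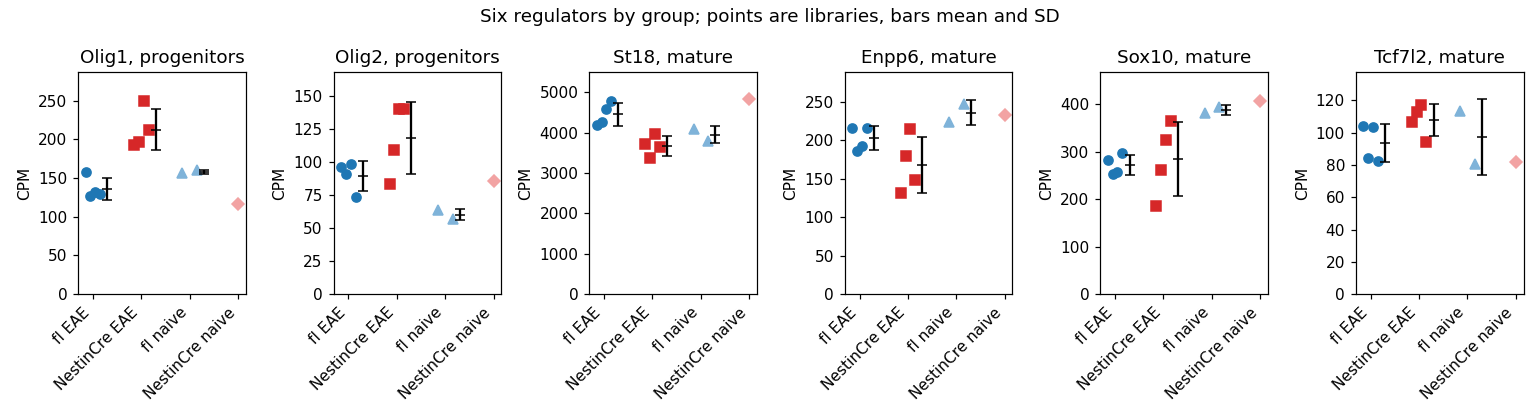
CPM in each library (points) with group mean and SD (bars) for Olig1 and Olig2 in progenitors and for St18, Enpp6, Sox10 and Tcf7l2 in mature oligodendrocytes, by genotype and EAE or naive state. The 4 NestinCre EAE libraries had 192 to 249.7 of Olig1 in progenitors, above the 127 to 157 of fl EAE, and 3366 to 3967 of St18 in mature cells, below the 4181 to 4786 of fl EAE.

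The other members measured in progenitors were not called. Olig2 stood at 95.9, 91.0, 98.3 and 73.2 in fl EAE and at 83.3, 109, 140.0 and 140.3 in NestinCre EAE, with overlapping groups (log2 difference 0.43, SE 0.21, adjusted p = 0.718 in edgeR). Bcas1 differed by 0.22 (adjusted p = 0.881), Tcf7l2 by 0.11 (0.978), Sox10 by 0.10 (0.976), St18 by 0.05 (0.989) and Nkx2-2 by -0.29 (0.949). Myrf, Nkx6-2 and Enpp6 had too few UMIs in progenitors to enter the test. Across the 7 tested genes 6 values were above 0 and 1 below, with a median of 0.11 against 0.00 over all genes. Counting the 81 nuclei of the cluster in between as progenitors, an alternative chosen after the data were seen, gave St18 -0.97 (adjusted p = 0.0141 in edgeR). That cluster held 27 fl EAE and 11 NestinCre EAE nuclei, with St18 at 2250.3 CPM. Assigning nuclei by marker UMIs gave St18 -1.10 (adjusted p = 0.00416), Tcf7l2 -0.58 (adjusted p = 0.0103) and Enpp6 -1.82 (adjusted p = 0.00569), all lower in NestinCre EAE. Of the marker-UMI progenitors 43.1% lay in the progenitor clusters, so neither alternative describes those clusters alone. The part of the added nuclei in these values was not tested.

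**Figure D5:**
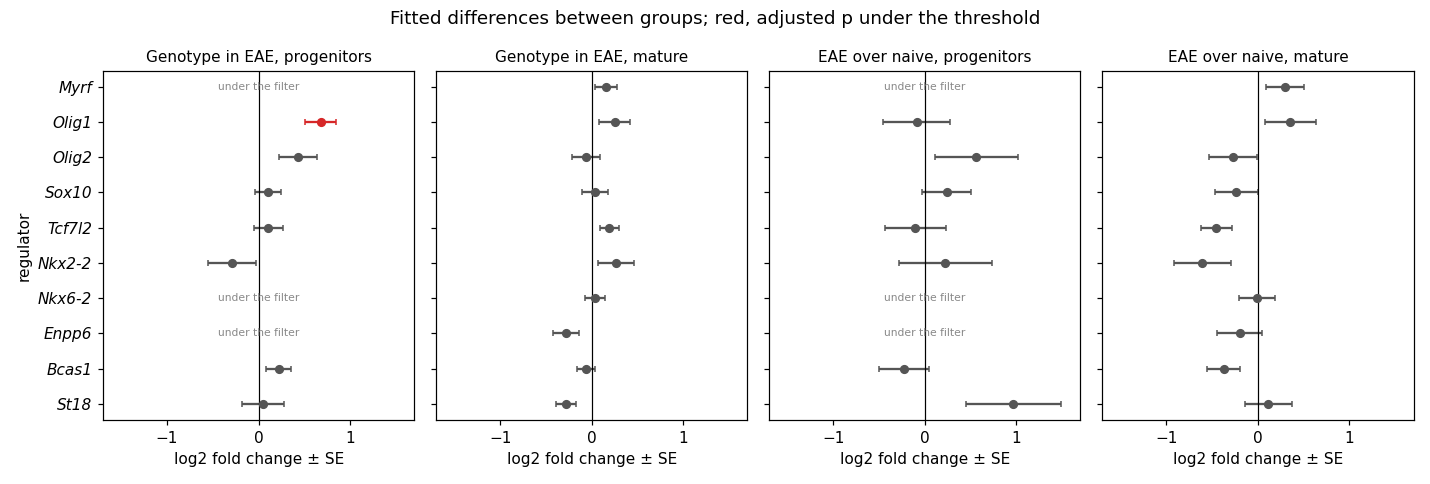
Log2 difference with its standard error from edgeR for each tested member, NestinCre EAE over fl EAE in progenitors and in mature oligodendrocytes, and EAE over naive in both stages. Olig1 in progenitors (0.68, SE 0.16) was the value past an adjusted p of 0.05.

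In newly formed cells, which were too few for a test, the nuclei of each genotype were pooled and given exact 95% Poisson intervals that cover counting error only. Tcf7l2 stood at 3525 CPM (3278 to 3786) over 34 fl EAE nuclei and at 2149.96 (1724 to 2649) over 8 NestinCre EAE nuclei. By library it was 4902, 3504, 2627 and 3111 in fl EAE and 2131.5, 1074 and 2799 in NestinCre EAE replicates 2 to 4, so the groups overlapped. Bcas1 went the other way, at 4379.8 (4104 to 4669) and 6767 (5994 to 7613), and by library at 4441, 3562, 4814 and 6833 against 5575, 4526 and 8442. Tcf7l2 and Bcas1 had intervals that did not overlap. With at least 10 UMIs this held for 2 of 9 members and for 4.97% of 4588 genes. With at least 100 UMIs it held for 2 of 5 members and for 32.3% of 356 genes. Sox10 stood at 388 (309 to 480.4) and 684 (455 to 989), Enpp6 at 1125 (988 to 1277) and 1148 (844 to 1527), St18 at 4016 (3752 to 4293) and 3420.4 (2877 to 4036) and Myrf at 177 (126 to 244) and 97.7 (26.6 to 250.2).

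In mature oligodendrocytes, none of the 10 genes passed the test between genotypes in EAE, where edgeR called 220 of 12148 genes (1.81%; 180 higher and 40 lower in NestinCre EAE). At an unadjusted p under 0.05 edgeR had 1331 of all genes and 1 of the 10, St18, and DESeq2 called 0 of the 10. St18 stood at 4181, 4253, 4585 and 4786 in fl EAE and at 3704, 3366, 3967 and 3640.2 in NestinCre EAE. All NestinCre EAE libraries lay below all fl EAE libraries, in both runs. Of all genes 6.40% were separated in this way in either direction. The difference came with a log2 difference of -0.28 (SE 0.11, adjusted p = 0.358 in edgeR). Mature nuclei had a median of 1864 to 3040.5 UMIs over fl EAE and 1656 to 2228 over NestinCre EAE libraries. Their median mitochondrial share was 0.237 to 0.453% and 0.281 to 0.649%. The part of depth in the St18 difference was not tested. Enpp6 stood at 216, 187, 193 and 216 in fl EAE and at 132, 179, 215 and 148 in NestinCre EAE, with overlap (-0.28, SE 0.14, adjusted p = 0.520). Tcf7l2 stood at 104, 84.5, 104 and 82.3 in fl EAE and at 107, 113, 117 and 94.4 in NestinCre EAE (0.19, SE 0.10, adjusted p = 0.518). Here fl EAE and NestinCre EAE overlapped through the run 2 library of NestinCre EAE. Olig1, the gene called in progenitors, differed by 0.25 (SE 0.17, adjusted p = 0.656), and Nkx2-2 by 0.26 (0.698), Myrf by 0.16 (0.700), Bcas1 by -0.06 (0.893), Olig2 by -0.06 (0.935), Nkx6-2 by 0.04 (0.955) and Sox10 by 0.04 (0.968). Of the 10 values 6 were above 0 and 4 below, with a median of 0.04 against 0.01 over all genes.

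The mature nuclei of the genotypes lay in part in different clusters. Of the 26 mature clusters, 5 were picked after the values were seen because at least 75% of the nuclei in each came from NestinCre EAE libraries, so their uneven origin is no finding. They held 3980 nuclei, which made up 61.7, 18.1, 50.3 and 55.8% of mature nuclei in those libraries against 0.985 to 6.86% in fl EAE and 0.662 to 1.64% in naive libraries. Within NestinCre EAE libraries these clusters were lower than the other mature clusters for Enpp6 (log2 ratio -0.50 ± 0.47), St18 (-0.16 ± 0.12) and Myrf (-0.07 ± 0.07) in 4 of 4 libraries, and higher for Olig2 (0.42 ± 0.27), Nkx6-2 (0.17 ± 0.19) and Bcas1 (0.07 ± 0.07) in 4 of 4. Phagocyte genes also rose in the mature sums: Lyz2 by 3.09 (adjusted p = 0.0025) and Ptprc by 2.32 (adjusted p = 0.0065), with the 6 microglial and phagocyte markers summing to 29.9 to 48.5 CPM in fl EAE and 53.2 to 97.7 in NestinCre EAE. The neuronal markers summed to 366 to 715 and 550.2 to 809.7. Their part in the values of the 10 genes was not tested.

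Whether the genotype difference itself differed between stages was tested on the sums of both stages. None of the 10 genes was called by edgeR, which called 38 of 12412 genes (0.306%), with DESeq2 calling 0 of the 10, and 841 of all genes and 2 of the 10 were under 0.05 before adjustment. The difference in mature cells minus that in progenitors was -0.43 for Olig1 (SE 0.19, adjusted p = 0.687) and -0.51 for Olig2 (SE 0.24, adjusted p = 0.718). The call of Olig1 in progenitors was thus not shown to be particular to that stage. With stages taken from marker UMIs, Tcf7l2 was called (0.74, adjusted p = 0.0221). Syt1 was called in the clusters (0.92, adjusted p = 0.0154).

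Between EAE and naive libraries, no member was called in either stage. With run in the model this comparison rests on run 2, since run 1 held no naive and run 3 no EAE library. The only naive library of run 2 was fl naive 2. The study describes the naive sample sequenced with that EAE batch as an internal control for reproducibility and batch effects. In mature cells edgeR called 114 of 13590 genes (0.839%) and 0 of the 10, with 1703 genes and 1 of the 10 at an unadjusted p under 0.05, and DESeq2 called 0 of the 10. Sox10 stood at 282, 252, 257 and 298 in fl EAE, 186, 262, 324 and 364 in NestinCre EAE, 381 and 395 in fl naive and 407 in NestinCre naive. The 8 EAE libraries (186 to 364) lay below the 3 naive ones (381 to 407), in run 2 by 298 and 364 against 381, and the log2 difference was -0.23 (SE 0.24, adjusted p = 0.755), or -0.48 (adjusted p = 0.104) without the run term. Enpp6 was likewise separated, at 132 to 216 in EAE and 224, 247 and 233 in naive libraries, with a log2 difference of -0.20 (SE 0.25, adjusted p = 0.806). These 2 of 10 genes did not overlap, against 6.47% of all genes. Tcf7l2 had the smallest p (-0.46, SE 0.17, adjusted p = 0.255), at 82.3 and 94.4 in the run 2 EAE libraries and 114 in fl naive 2. The naive libraries of run 3, at 80.3 and 82.0, lay below all 8 EAE libraries, and the difference was 0.13 without the run term. Nkx2-2 was 24.7 to 47.6 in EAE and 46.8, 52.1 and 41.8 in naive libraries (-0.61, SE 0.31, adjusted p = 0.445), with NestinCre EAE 3 inside the naive range. Bcas1 differed by -0.37 (0.422), Olig1 by 0.35 (0.666), Myrf by 0.30 (0.605), Olig2 by -0.27 (0.741), St18 by 0.11 (0.904) and Nkx6-2 by -0.01 (0.994).

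In progenitors edgeR called 10 of 7767 genes (0.129%) between EAE and naive and 0 of the 7 members tested, with 468 genes and 0 of the 7 at an unadjusted p under 0.05, DESeq2 called 0 of the 7, and 0 of 7 had groups that did not overlap, against 3.27% of all genes. St18 stood at 58.5 to 109 over the 8 EAE libraries and at 43.9, 114 and 103 in naive libraries, a log2 difference of 0.97 (SE 0.52, adjusted p = 0.813). The naive library of run 2, fl naive 2, was the lowest of the 11. Without the run term it was -0.09. Olig2 differed by 0.56 (SE 0.45, adjusted p = 0.899) and by 0.58 without the run term, with 73.2 to 140.3 in EAE against 63.4, 57.1 and 85.6 in naive libraries. Sox10 differed by 0.24 (0.946), Nkx2-2 by 0.23 (0.985), Bcas1 by -0.23 (0.957), Tcf7l2 by -0.10 (0.995) and Olig1 by -0.09 (0.995). Where the cluster in between was counted with the progenitors, St18 (-2.64, adjusted p = 6.62e-06), Enpp6 (-3.70, adjusted p = 0.00015) and Bcas1 (-1.54, adjusted p = 5.8e-05) were lower in EAE. That cluster held 25 of its 81 nuclei in fl naive 2.

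The difference of the genotype effects between EAE and naive mice rests on 1 NestinCre naive library, which is assumed to vary like the others. In mature cells edgeR called 0 of 13590 genes (0.0%), with 664 at an unadjusted p under 0.05, and DESeq2 called 4 genes and none of the 10. St18 was the member with an unadjusted p under 0.05 (-0.74, SE 0.24, adjusted p = 0.920), at 4838 in NestinCre naive against 4088 and 3792 in fl naive. In progenitors edgeR called 0 of 7767 genes (0.0%), with 426 at an unadjusted p under 0.05, and DESeq2 called 0. Olig1 had 1.07 (SE 0.41, adjusted p = 0.897) and Bcas1 0.70 (SE 0.33, adjusted p = 0.897), the latter at 462 in NestinCre naive and 659 and 673 in fl naive progenitors.

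Other genes of the pathway were followed in 3 lists. Of 23 further promoters of differentiation (chromatin, thyroid hormone and zinc finger factors among them) and 22 factors that hold the progenitor state or restrain differentiation, none was called in any of the 7 comparisons. Between genotypes in EAE, 20 of the promoters were tested in mature cells, 11 above and 9 below 0, with a median log2 difference of 0.02 against 0.01 over all genes, and the smallest p belonged to Zfp488 (0.77, adjusted p = 0.192), a zinc finger cofactor of Olig2, and Thrb (0.35, adjusted p = 0.308), a thyroid hormone receptor. Of the restraining factors 17 were tested there, 10 above and 7 below 0, led by Klf9 (0.32, adjusted p = 0.512) and Ctnnb1 (0.17, adjusted p = 0.694). In progenitors the leading genes were Thra (0.40, adjusted p = 0.704) and Zeb2 (-0.13, adjusted p = 0.949) among 16 promoters, and Prrx1 (-0.40, adjusted p = 0.694) and Klf9 (0.40, adjusted p = 0.771) among 13 restraining factors. Of 22 myelin genes known as targets of Myrf or Sox10, 8 were above and 14 below 0 in mature cells, and 1 was called. Hapln2, a matrix protein of the node of Ranvier, rose from 600.5, 577, 508 and 694 in fl EAE to 898, 970, 805 and 1111 in NestinCre EAE (0.66, SE 0.10, adjusted p = 0.0047), while Opalin differed by -0.57 (adjusted p = 0.175). In progenitors 10 myelin genes were tested and none was called, with Nfasc (0.38, adjusted p = 0.822) and Trf (0.38, adjusted p = 0.937) leading.

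Between EAE and naive mature cells 11 promoters were above and 9 below 0, 9 restraining factors above and 10 below, and 9 myelin genes above and 13 below. The smallest p in each list belonged to Thrb (-0.53, adjusted p = 0.299) and Hdac1 (-0.40, adjusted p = 0.368), to Notch1 (-2.002, adjusted p = 0.125) and Klf9 (0.92, adjusted p = 0.158), and to Opalin (-0.94, adjusted p = 0.192) and Mobp (0.69, adjusted p = 0.218). In progenitors the counts were 10 and 9, 8 and 9, and 3 and 12, and the smallest p belonged to Prmt5 (-2.003, adjusted p = 0.715) and Zfp488 (3.11, adjusted p = 0.717), to Jag1 (-1.92, adjusted p = 0.622) and Id2 (-1.24, adjusted p = 0.856), and to Mag (-1.52, adjusted p = 0.806) and Cldn11 (-1.17, adjusted p = 0.855). Mag and Cldn11 had 98 and 90 UMIs in the progenitors of all 11 libraries together, so their values there rest on low counts. For the difference of the genotype effect between stages Zfp488 (1.43, adjusted p = 0.349) and Thrb (0.46, adjusted p = 0.463) led the promoters. Id2 (-0.84, adjusted p = 0.831) and Ednrb (0.75, adjusted p = 0.877) led the restraining factors, and Ugt8a (-0.36, adjusted p = 0.765) and Mag (-0.75, adjusted p = 0.8005) the myelin genes. In the interaction of genotype and EAE no gene of the 3 lists was called. The smallest p in mature cells belonged to Tcf12 (-0.53, adjusted p = 0.953) and Qk (-0.49, adjusted p = 0.999), to Notch1 (0.98, adjusted p = 1) and Axin2 (0.38, adjusted p = 1), and to Hapln2 (0.85, adjusted p = 0.797) and Mbp (-0.58, adjusted p = 0.986). In progenitors it belonged to Zfp536 (-0.64, adjusted p = 0.904) and Thra (0.83, adjusted p = 0.916), to Hes5 (-5.88, adjusted p = 0.897) and Ctnnb1 (-0.97, adjusted p = 0.944), and to Rffl (-1.39, adjusted p = 0.951) and Mag (1.23, adjusted p = 0.955).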

How the data were processed

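The deposited matrices held counts, UMIs per gene and nucleus, made by the authors with Cell Ranger from 10x Genomics 3′ libraries. Per the file headers the version was 7.0.0 for run 1 and 6.0.2 for runs 2 and 3, and the submitters' processing notes name 6.0.2 and GRCm39. The matrices had already been filtered to cell barcodes (189709 in all). Nuclei were kept with at least 200 genes (run 1) or 500 genes (runs 2 and 3) and under 5% mitochondrial UMIs. Doublets were scored per library at 0.8% per 1000 barcodes (10.5 to 18.4% called) and removed, as were clusters with over 40% of them, leaving 160409 nuclei with a median of 2383 UMIs. The precision of a level is set by these UMIs. The text gives the number behind low levels of the 10 genes by stage, but not behind most values of the list genes. Clustering used 3000 variable genes, 40 components and Leiden resolutions of 2, 6 and 1, without the 10 genes, and gave 111 clusters. Names of 20 classes were given from fixed markers to clusters with 20 or more nuclei, and mixed ones stayed unnamed. Summed counts per library were tested with edgeR 4.0.16 (quasi-likelihood, TMM, filterByExpr, Benjamini-Hochberg over all genes tested, run as a covariate), in R 4.3.3, and with DESeq2 1.42.0 as an alternative. Clustering used Python 3.11.15 with scanpy 1.11.5 and leidenalg 0.10.2. Tests needed at least 10 nuclei per library. The edgeR procedure was tested on simulated data. It missed many of the smaller changes put in, most of all between EAE and naive and in the interaction. A member that was not called may therefore still differ.

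The 10 genes and the lists were chosen with earlier results of these data known. In progenitors and mature cells, every member tested is named for genotype in EAE and for EAE against naive. For the interaction and for the difference between stages, main-fit values are given only for members with an unadjusted p under 0.05. In newly formed cells, values by genotype are given only for Tcf7l2, Bcas1, Sox10, Enpp6, St18 and Myrf. From the other lists, genes called at an adjusted p under 0.05 are named, or the 2 with the smallest p, as are the 5 genes most like Sox10, Myrf and Enpp6 over the classes with at least 20 CPM in 1 class. The study's methods count 4 mice of each genotype in EAE, so the EAE libraries were taken as separate mice. Whether the fl naive samples came from separate mice is not given in the sources used here. Libraries of a group differed by more than sampling noise (chi-square per degree of freedom 2.51 to 16.8 over 13 pairs). Alternatives were other size factors, no filter, stages from marker UMIs per nucleus, no doublet removal, nuclei under 6000 UMIs, no run term, a replicate block, run 1 alone, each library left out and, chosen after the data were seen, the cluster in between counted with progenitors and every alternative for the shares of the stages. Gene coordinates are from the GENCODE annotation of GRCm39 and promoters from RefSeq on GRCm38.p6, used for sequence only.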

Additional observations from a re-analysis of the deposited data

Results flagged for a closer look

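Of 48 sets of 4 EAE libraries checked, Dixon's test for a library far from the other 3 was passed 2 times. For values without ties, chance gives about 1 in 20. In fl EAE progenitors, replicate 1 had 157.2 CPM of Olig1, while the other 3 libraries lay at 127 to 132. This library was the one nearest to the NestinCre EAE libraries, and without it the Olig1 difference between genotypes remained called (adjusted p = 0.0497 in edgeR). In NestinCre EAE progenitors, replicate 4 had 6.47 CPM of Enpp6 and the other 3 libraries had none, a value that rests on 3 UMIs in the library with the most progenitors. With the other 3 libraries at 0, any value above 0 passes this test, so the Enpp6 flag carries no information.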

How the results depend on the processing

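Between genotypes in EAE, edgeR called 220 genes in mature cells, 423 with no filter and 129 to 297 with 1 library left out, and 40 in progenitors, 24 with DESeq2, 108 with no filter and 31 to 57 with 1 library left out. Between EAE and naive it called 114 in mature cells (DESeq2 267, no filter 274, no run term 293, 1 library left out 26 to 195) and 10 in progenitors (DESeq2 5, stages from marker UMIs 2, cluster in between counted in 33, no run term 37, 1 library left out 5 to 15). The interaction had 0 calls in mature cells (DESeq2 4, other size factors 2, no filter 3, marker UMIs 2, 1 library left out 0 to 3) and 0 in progenitors (no filter 7, 1 library left out 0 to 2). The difference of the genotype effect between stages had 38 calls (DESeq2 3, no filter 71, marker UMIs 23, no doublet removal 11, 1 library left out 2 to 91). The newly formed share of the lineage, NestinCre EAE minus fl EAE, went from -0.41 to 0.000421 percentage points with marker UMIs and to -0.26 under 6000 UMIs, and lay between -0.52 and -0.32 with 1 library left out. Members with separate Poisson intervals in newly formed cells numbered 2, 4 with marker UMIs and 1 under 6000 UMIs. The share over all genes was taken for the main definition only, and marker UMIs gave 8 nuclei in each genotype. The counts of the alternatives are therefore no result about the members. In progenitors, St18 between genotypes turned from 0.05 to -1.10 and Tcf7l2 from 0.11 to -0.58 with marker UMIs, St18 to -0.97 with the cluster in between counted in, and St18 between EAE and naive from 0.97 to -2.64. Among stage ratios beyond their spread, those over progenitors turned with marker UMIs for Olig1 (pooled 0.48 in newly formed and 0.56 in mature cells, mean over libraries 0.45 in mature cells) and Nkx2-2 (pooled 0.33 and mean 0.26 in mature cells), and with the cluster in between for Bcas1 (pooled -0.12 and mean -0.10 in mature cells). Sox10 in mature cells over progenitors also turned with marker UMIs (mean 1.18, pooled 1.31). Means over libraries, but not pooled ratios, turned with marker UMIs for newly formed cells over progenitors (Sox10 -0.59, Bcas1 -1.25) and mature over newly formed cells (Sox10 1.78, Enpp6 1.02, Bcas1 2.14). The marker-UMI progenitors numbered 2054, of which 43.1% lay in the progenitor clusters. Newly formed nuclei numbered 71 by clusters and 34 by marker UMIs, with 12 in both (16.9 and 35.3% of each). The causes of these changes were not tested. Of 977 refitted log2 differences of members, 882 kept direction and side of the threshold. Olig1 in progenitors was the 1 member called in a main fit, so for the others keeping the side was easily met. Olig1 itself stayed called in 8 of 18 alternatives.

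With a replicate block in place of run, 170 genes were called in mature cells and 30 in progenitors. Same-numbered libraries did not deviate together (correlations -0.23 to 0.417 in mature cells and -0.068 to 0.118 in progenitors, 1 of 4 pairs over 0.1 in each), so the numbers were not taken to pair mice. In each stage 1 of 4 fl EAE libraries correlated best with its own number. EAE against naive without fl naive 2, and the interaction without any 1 naive library, could not be fitted. Newly formed cells, with 71 nuclei, and members with few UMIs in progenitors limit what can be seen. In the progenitor clusters Enpp6, Nkx6-2 and Myrf had too few UMIs to enter the main fit, which therefore could not show differences in them.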

Other observations

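Several of the genes had UMIs outside the oligodendrocyte lineage. Tcf7l2 reached 469 CPM in Bergmann glia, 425 in leptomeningeal cells, 419 in border-associated macrophages, 404 in astrocytes, 297 in infiltrating phagocytes and 246 in microglia, each above the 181 of progenitors, and 167 in excitatory neurons outside the cerebellar cortex, against 7.50 in granule cells and 3.31 in molecular layer interneurons. Nkx2-2 stood at 88.1 CPM in Bergmann glia, above the 61.2 of progenitors and the 24.2 of astrocytes, and at 1.29 in granule cells. St18 stood at 507 in granule cells with an exact 95% Poisson interval of 504 to 509.5, against 44.9 in molecular layer interneurons and 46.5 in Purkinje cells, and the mean over 11 libraries was 507 ± 56.9 (SD).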
